A study of Mus musculus with 6 samples.

Results

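Basophils and mast cells share a small set of genes for granule proteases, histamine synthesis, the high-affinity IgE receptor, its GATA regulators, the receptor Kit and the cytokine IL-4. Such genes, Mcpt8, Prss34, Cpa3, Hdc, Fcer1a, Ms4a2, Gata1, Gata2, Kit and Il4 (10 in all), are described here in cultures of mouse bone marrow monocytes with and without IFN-beta. They were taken by gene name from the arrays' own annotation, control spots left out, which gave 15 of 56605 probes and 10 of the 19500 genes tested. C57BL/6J mice aged 6 to 8 weeks gave the bone marrow, monocytes were sorted from it magnetically (MACS), and the sorted cells spent 60 h in 20 ng/mL M-CSF, which turns monocytes into macrophages. The 3 control samples received nothing further, and the 3 IFN-beta samples received 100 U of this type I interferon. The sorting kit leaves monocytes unlabelled and takes other cells out, so cells that are not taken out stay in the culture. Whether the 3 samples of a group had their own mice or cultures is not stated in the labels, and the p-values below therefore measure only the spread between these samples, which may be technical.

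Basophils are granulocytes of the blood that arise in the bone marrow from progenitors expressing Gata2, and mast cells are their relatives in tissues. Both bind IgE through a receptor whose alpha and beta chains are encoded by Fcer1a and Ms4a2, and on crosslinking they release histamine, proteases and IL-4. In the mouse Mcpt8 and Prss34 mark basophils more than mast cells, Cpa3 and Hdc are found in both, and a high level of Kit is a mark of mast cells and of early progenitors.

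A level is given as the log2 signal of a probe minus the log2 75th percentile of its array, so 0 is the brightness of a probe at that percentile. The percentile lay at 305 to 550 signal units on the controls and at 236 to 244 on the IFN-beta arrays, 49.0% to 63.9% of probes lay well above background, and no spot was saturated. Controls 1 and 2 stood apart from the other 4 arrays. The median absolute difference in level over 17522 genes above background on all arrays was 0.0756 between controls 1 and 2, 0.428 and 0.455 between these and control 3, 0.186 to 0.219 among the IFN-beta arrays, and 0.326 to 0.363 between control 3 and IFN-beta. The 16 fibroblast genes summed to 722 and 818 times the percentile on controls 1 and 2, against 32.0 on control 3 and 15.7 to 52.8 on IFN-beta. On control 3 and the IFN-beta arrays most of this sum came from Acta2, at 4.95 on control 3 and 3.71 to 5.66 with IFN-beta. IFN-beta 1 shared slide 1 with all 3 controls, whereas slide 2 carried only treated samples (IFN-beta 2 and 3). Monocyte and macrophage markers were present on every array: Csf1r, the M-CSF receptor, lay at 7.15 to 7.66, and Cd68, Lyz2 and Adgre1 were well above background throughout.

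All 10 genes were higher with IFN-beta (limma, Benjamini-Hochberg over 19500 genes, adjusted p under 0.05), by 2.66-fold for Kit to 16.5-fold for Gata1. Of all genes tested, 19.8% were called, 11.8% higher and 8.04% lower. The median log2 fold change was 3.39 over the 10 genes and 0.10 over all genes. In each of the 10 the lowest IFN-beta array lay above the highest control, by 0.86 (Kit) to 3.45 (Gata1) on the log2 scale; 23.4% of all genes had groups separated this way. A called log2 fold change of at least 2 was found in 9 of the 10, all but Kit, and in 2.03% of all genes. Each of the 10 was represented by a probe well above background on all 6 arrays, so none entered through its bright group alone. In RNA from whole cultures, more cells of a type and more RNA per cell cannot be told apart.

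**Figure D1:**
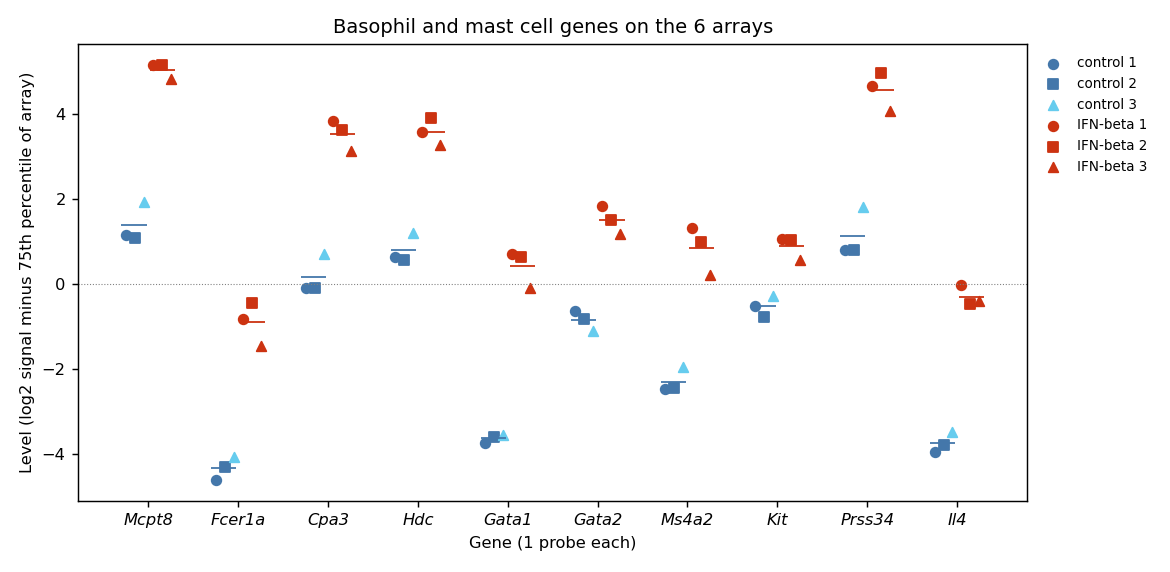
Level of each of the 10 genes on each array, as log2 signal minus the log2 75th percentile of that array (vertical axis), with 1 probe per gene along the horizontal axis; blue symbols are controls, red symbols IFN-beta, and short lines the group means. In every gene the 3 IFN-beta points lie above the 3 control points, with the narrowest gap, 0.86, in Kit.

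The 3 granule proteases rose by 10.3-fold to 12.7-fold. Mcpt8 encodes mast cell protease 8, a serine protease of basophil granules, and its probe lies at chr14:56701075-56701134 on the minus strand (mm9, as are all probe positions here). It read 1.14, 1.09 and 1.93 on controls 1 to 3 and 5.15, 5.17 and 4.84 on IFN-beta 1 to 3. The 3 IFN-beta arrays were alike and stood far above every control, of which control 3 was the highest. The log2 fold change was 3.67 ± 0.26 (SE, n = 3 per group), 12.7-fold, with a limma adjusted p of 1.46e-04. Before scaling, the signals of Mcpt8 were 1215, 1122 and 1163 on the controls, so its higher level on control 3 came with that array's lower percentile. Prss34 encodes another basophil serine protease (mast cell protease 11; chr17:25436942-25437001, plus strand). It lay at 0.81, 0.79 and 1.80 on the controls and at 4.67, 4.96 and 4.07 with IFN-beta. Control 3 was again above the other controls, and IFN-beta 3 was the lowest treated array. The change was 3.43 ± 0.34, 10.8-fold (adjusted p = 0.000642). Cpa3, carboxypeptidase A3 of basophil and mast cell granules (chr3:20115674-20115733, minus strand), read -0.08, -0.09 and 0.70 on the controls. With IFN-beta it read 3.83, 3.63 and 3.14; control 3 was again the highest control and IFN-beta 3 the lowest treated array. It rose by 3.36 ± 0.28, 10.3-fold (adjusted p = 0.000329).

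Hdc encodes histidine decarboxylase, the enzyme that makes histamine (chr2:126419516-126419575, minus strand). Its levels were 0.63, 0.56 and 1.19 on the controls and 3.57, 3.90 and 3.27 with IFN-beta. The groups were separated by more than the range within either of them, and the rise was 2.79 ± 0.24, 6.90-fold (adjusted p = 0.000394). The other probes of Hdc went the same way. The probe at chr2:126426030-126426089 was higher by 2.90 (adjusted p = 0.000336 over 29794 probes). The probe at chr2:126420357-126420416 rose above background on 1 of 3 controls and was at least 9.87-fold higher, with the dim controls set at the lowest signal of a probe well above background on their array. Of 9 genes that store, break down or sense histamine 6 were tested, and 2 were higher, 2 lower and 2 not called. Slc18a2, the vesicular transporter that loads amines into granules, was higher by 1.16 ± 0.23 (adjusted p = 0.0123; 0.0512 without IFN-beta 2), and the receptor Hrh2, not well above background on any control, was at least 2.94-fold higher (0.00267; 2.15-fold and 1.48-fold with normexp and percentile or quantile scaling). Hnmt, which inactivates histamine by methylation, was lower at -1.25 ± 0.18 (0.00342), and the receptor Hrh1 was at least 3.48-fold lower (0.000642). With normexp it was at -0.35 (0.136) after percentile scaling and at -0.67 (0.0132) after quantile normalization. Without IFN-beta 2, 1 gene of this list was called higher. Aoc1, which oxidises histamine, was not well above background on any array.

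Fcer1a, the IgE-binding alpha chain (chr1:175152865-175152924, minus strand), was dim in the controls, at -4.62, -4.31 and -4.07. It lay at -0.82, -0.45 and -1.45 with IFN-beta, with a range of 1.003 among the treated arrays and a gap of 2.62 to the nearest control. The change was 3.43 ± 0.28, 10.7-fold (adjusted p = 0.000297). Ms4a2, the signal-amplifying beta chain (chr19:11690107-11690166, minus strand), read -2.48, -2.46 and -1.96 on the controls and 1.32, 0.98 and 0.21 with IFN-beta. It was 8.80-fold higher, 3.14 ± 0.31 on the log2 scale (adjusted p = 0.000591). A further Ms4a2 probe at chr19:11691701-11691760, not well above background on any control, was at least 6.66-fold higher (adjusted p = 0.000271 over all probes). Of the 15 probes 14 passed the filter on dim probes, and all 14 were called higher with no overlap between groups. Of all probes tested 13.7% were called higher, and of all genes 23.4% had groups separated this way. The Hdc and Ms4a2 probes given above with lower bounds passed through their IFN-beta arrays alone, so their direction is not independent of the filter. The rest of the receptor's pathway had smaller fold changes. Fcer1g, the gamma chain that myeloid cells also use with other Fc receptors, had a log2 fold change of 0.66 ± 0.25 (adjusted p = 0.101). Of 13 genes for the gamma chain and for signalling below the receptor, 3 were higher and 1 lower, with a median of 0.50. The adaptor Lat rose by 1.22 ± 0.16 (adjusted p = 0.00214), the kinase Fyn by 1.11 ± 0.20 (0.00915) and the exchange factor Vav1 by 0.88 ± 0.20 (0.0219), while the phospholipase Plcg1 was lower, at -1.10 ± 0.18 (0.00566). Without control 3, 11 of the 13 were called higher. With spike-in scaling, and with no filter on dim probes, Lat alone was (Fyn 0.0599 and 0.0513, Vav1 0.173 and 0.086). The call of Vav1 also ended when any single array other than control 3 and IFN-beta 1 was dropped (adjusted p 0.0808 to 0.0981).

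Gata1 encodes the zinc finger factor that switches on erythroid, mast cell and basophil genes (chrX:7536392-7536451, minus strand). Its levels were -3.74, -3.60 and -3.56 on the controls, which agreed closely, and 0.71, 0.63 and -0.10 with IFN-beta. The rise was 4.05 ± 0.24, 16.5-fold (adjusted p = 8.52e-05). Gata2, the factor of stem cells and of the basophil and mast cell lineages (chr6:88156835-88156894, plus strand), read -0.63, -0.82 and -1.11 on the controls and 1.84, 1.51 and 1.17 with IFN-beta. It was the only member that was lowest on control 3 among the controls. It rose by 2.36 ± 0.23, 5.13-fold (adjusted p = 0.000554). Among 20 genes that are partners of GATA factors or marks of red cells and platelets, 14 were tested, 4 were higher and 1 lower, with a median of 0.15. Gfi1b, a repressor in the erythroid and megakaryocyte lineages, rose by 1.996 ± 0.28 (adjusted p = 0.00288), Nfe2 by 1.64 ± 0.27 (0.0057) and Tal1 by 1.15 ± 0.17 (0.00417), and Itga2b, the integrin CD41, was at least 4.34-fold higher (0.00849; log2 fold changes of 1.29 and 1.02 with normexp). Vwf was lower at -1.06 ± 0.26 (adjusted p = 0.0268), a call that ended when any single array other than control 3 was left out (adjusted p 0.0657 to 0.0922), and with the mean of its probes (-0.10). Zfpm1, the cofactor that binds GATA1, had a change of 0.11 (0.723). The red cell genes Klf1, Alas2 and Hbb-b1 were well above background on no IFN-beta array, and Klf1 on 1 control. Alas2 read -0.05, -0.28 and -6.61 on controls 1 to 3, and Hbb-b1 read -1.19, 0.63 and -6.27, so both were low on control 3 as well. Hba-a1, a haemoglobin gene, was at 7.06 and 6.95 on controls 1 and 2 against -0.89 on control 3 and 0.60 to 1.13 with IFN-beta.

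Because the 10 genes include both GATA factors, the start sites of their genes were searched for the words these factors bind. RefSeq (GRCm38.p6) gave 13 windows for the 10 genes, each from 250 bases before to 50 after a start. The letters GATA, preceded by A or T and followed by A or G (AGATAA, for instance), were searched on both strands and found in 7 of the 13 windows, for Fcer1a, Cpa3, Hdc, Ms4a2, Prss34 and Il4. At least 1 such word was present in 29.8% of 32851 windows of this length over all genes. The 250 bases before the start are shown for the 4 genes whose match is the word AGATAA, with each match in capitals; TTATCT is the same word on the opposite strand. The stretches are chr3:20242182-20242431 on the minus strand for Cpa3, chr17:25298144-25298393 on the plus strand for Prss34, chr19:11623720-11623969 on the minus strand for Ms4a2 and chr1:173227230-173227479 on the minus strand for Fcer1a, all written 5′ to 3′ along the gene.
Cpa3: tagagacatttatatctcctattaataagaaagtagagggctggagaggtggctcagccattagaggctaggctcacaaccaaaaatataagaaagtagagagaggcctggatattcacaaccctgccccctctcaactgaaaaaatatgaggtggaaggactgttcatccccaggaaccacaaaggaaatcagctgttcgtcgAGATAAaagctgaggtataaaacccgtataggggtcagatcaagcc
Prss34: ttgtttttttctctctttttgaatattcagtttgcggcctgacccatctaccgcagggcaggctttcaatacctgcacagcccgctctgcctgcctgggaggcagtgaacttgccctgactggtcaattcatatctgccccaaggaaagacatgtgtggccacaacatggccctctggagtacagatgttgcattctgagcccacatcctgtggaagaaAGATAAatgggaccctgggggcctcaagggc
Ms4a2: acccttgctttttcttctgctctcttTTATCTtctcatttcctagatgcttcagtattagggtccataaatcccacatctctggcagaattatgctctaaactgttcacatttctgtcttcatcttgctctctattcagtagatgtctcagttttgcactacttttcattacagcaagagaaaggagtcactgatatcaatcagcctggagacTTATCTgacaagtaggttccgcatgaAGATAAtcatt
Fcer1a: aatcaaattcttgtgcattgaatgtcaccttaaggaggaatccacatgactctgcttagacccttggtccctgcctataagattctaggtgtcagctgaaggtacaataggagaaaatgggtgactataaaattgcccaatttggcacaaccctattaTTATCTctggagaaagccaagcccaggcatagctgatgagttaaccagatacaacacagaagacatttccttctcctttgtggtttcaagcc
The first base of the match lies at -46 from the start in Cpa3, at -31 in Prss34, at -224, -37 and -11 in Ms4a2 and at -92 in Fcer1a. Ms4a2 had the most matches, 3. The windows of Mcpt8, Gata1, Gata2 and Kit hold none. For comparison, the word AANNGAAA, the core bound by interferon regulatory factors, was found in 4 member windows, for Cpa3, Ms4a2 and Il4, and in 23.9% of all windows, and TTCNNNGAA, the word bound by STAT dimers, in 1 member window (Il4) and in 8.3% of all. No match of 1 motif overlapped a match of another in these windows. A match describes the letters of a window and no binding was measured. Sequence outside the windows was not searched, and any part of these factors in the change of the 10 genes was not tested.

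Kit, the receptor for stem cell factor on mast cells and progenitors (chr5:76052394-76052453, plus strand), changed least. It read -0.51, -0.78 and -0.29 on the controls and 1.06, 1.03 and 0.57 with IFN-beta, 1.41 ± 0.21 higher or 2.66-fold (adjusted p = 0.00403). Within slide 1, where IFN-beta 1 is the lone treated array and is assumed to vary like the controls, Kit was higher by 1.59 with an adjusted p of 0.0834, while the other 9 genes were called there (2.69 to 4.35, highest adjusted p 0.0435). Set against Kit array by array, each of the other 9 genes had the larger log2 fold change, by 0.95 (Gata2) to 2.64 (Gata1) log2 units and by 2.25 for Mcpt8. The groups did not overlap in these differences, and in all 9 pairs the exact 2-sided permutation test gave 0.1, the smallest p that 3 against 3 allows, and 0.1 after adjustment over the 9. Kit was picked as the gene that changed least, so the sign of these differences was given in advance and the test adds no support. Further Kit probes target a cDNA within the gene and were dim. The probe at chr5:76048262-76048321 was higher by 1.42 (adjusted p = 0.00111 over all probes), and the one at chr5:76048202-76048261 failed the filter and its groups overlapped. Of 7 growth factors for basophils and mast cells 3 were tested. The ligand of Kit, Kitl, had a change of -0.11 ± 0.18 (adjusted p = 0.687), and Il18 one of 0.45 (0.201). Csf1, which encodes the M-CSF already in the medium, rose by 2.33 ± 0.40 (0.00714; 0.0569 with the mean of its probes), and without control 3 one more of the 7, Il18, was called. Il3, the main basophil growth factor, was well above background on 1 IFN-beta array and no control, Csf2 on none, and Il33 and Tslp on 2 controls each.

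Il4 encodes interleukin 4, which basophils release on activation (chr11:53426076-53426135, minus strand). It was dim in the controls at -3.96, -3.80 and -3.48 and lay at -0.02, -0.48 and -0.40 with IFN-beta, with ranges under 0.5 in both groups. The change was 3.44 ± 0.20, 10.9-fold (adjusted p = 8.52e-05). Of 13 genes for its receptor, its signalling and its known targets in macrophages, 10 were tested, 5 were higher and 1 lower, with a median of 0.87. Arg1, the arginase that IL-4 raises in macrophages, exceeded background on 1 control and was at least 212-fold higher (adjusted p = 5.43e-05). The lower bounds given here are for the scanner software's background correction. With normexp Arg1 was 38.0-fold higher with percentile scaling and 30.5-fold with quantile normalization. Ccl24, a chemokine for eosinophils and basophils, rose by 2.33 ± 0.24 (0.000798), and Chil3, Il2rg and Mrc1 rose by 1.81, 1.67 and 1.07 (0.00249, 0.00296 and 0.0226). Il13ra1, a receptor chain shared by IL-4 and IL-13, was lower at -1.58 ± 0.17 (0.000861), and Il4ra had a change of 0.67 (0.117). The targets Retnla, Ccl17 and Ccl22 were not tested. Retnla read 1.30, 0.46 and -6.43 on controls 1 to 3 and -3.76, -3.27 and -3.61 with IFN-beta. Ccl17 was well above background on 2 arrays of each group, and Ccl22 on 1 control and no IFN-beta array.

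Fold changes of the dim members depended on the background correction. With normexp in place of the scanner software's own correction, and percentile scaling, Fcer1a, Gata1 and Il4 were higher by 1.996, 2.43 and 2.09 in place of 3.43, 4.05 and 3.44, and all 10 genes stayed called. Mcpt8 (3.23) then had the highest fold change of the 10, in place of Gata1. Scaling on the spike-in controls brought the all-gene median to -0.23 and took the share of called genes that were higher from 59.5% to 24.9%, and normexp with percentile scaling moved that share to 69.9%; the 10 genes remained higher at 1.08 (Kit) to 3.71 (Gata1) with spike-in scaling. With slide as a block the fold changes were 1.59 (Kit) to 4.35 (Gata1). Since slide 2 held no control, they rest on IFN-beta 1 alone against the controls and equal those within slide 1. Leaving out 1 array at a time, all 10 were called each time, while the count over all genes, 3868, ranged widely. It was 9398 once control 3 was dropped. Dropping another array gave 1831 (control 1), 2017 (control 2), 1851 (IFN-beta 2) or 2048 (IFN-beta 3).

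Since control 3 carried little of the fibroblast signal of controls 1 and 2, it was also used as the only control. It is then a lone array assumed to vary like the others. All 10 genes were again higher, against 7.97% of all genes. The proteases had the largest drop from the comparison with all controls. Mcpt8 was higher than on control 3 by 3.12 ± 0.18 (8.71-fold, adjusted p = 0.000569), Prss34 by 2.76 ± 0.33 (0.00491) and Cpa3 by 2.83 ± 0.27 (0.00246). Fcer1a, Ms4a2 and Hdc were higher by 3.16, 2.80 and 2.39, Gata1 and Il4 by 3.97 and 3.17, and Gata2, the exception in the other direction, by 2.61. Kit was higher by 1.18 ± 0.24 (0.0272), and this call ended without IFN-beta 2 (1.10, adjusted p = 0.0769). Against controls 1 and 2 alone the 10 were called too, where 33.1% of all genes were called higher and 15.1% lower. At these scaled levels control 3 was the control nearest to IFN-beta. The median over the 10 genes, measured from the mean of all controls, was -0.19, -0.20 and 0.30 on controls 1 to 3. It was 3.58, 3.37 and 2.91 on IFN-beta 1 to 3. Among the controls, 9 of the 10 were highest on control 3, whose percentile was the lowest of the controls. Before scaling, Prss34 alone was highest on control 3 (962, 915 and 1066 on controls 1 to 3). Fcer1a, Ms4a2, Hdc, Gata1, Gata2, Il4 and Kit were lowest there before scaling. Among the IFN-beta arrays, 9 of the 10 were lowest on IFN-beta 3.

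**Figure D2:**
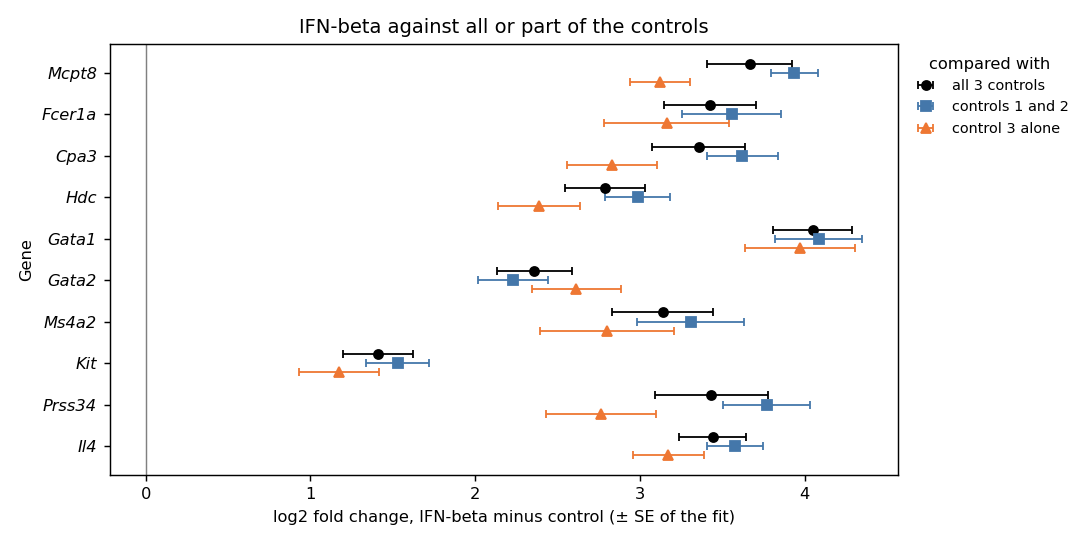
Log2 fold change of IFN-beta over control with the standard error of the fit (horizontal axis) for each of the 10 genes (vertical axis), against all 3 controls, against controls 1 and 2, and against control 3 alone. All values lie above 0; Mcpt8 stands at 3.67 against all controls and 3.12 against control 3, and Gata2 is the only gene that is higher against control 3 (2.61) than against all controls (2.36).

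Further basophil genes that are not among the 10 were examined for the same pattern. Of 12, 10 were tested and 8 were higher, none lower, with a median of 1.86; against control 3 alone 7 were higher. Without control 1, IFN-beta 2 or IFN-beta 3 the count of 8 went to 5, 4 and 5, respectively. Cd200r3, an activating receptor of basophils and mast cells, rose by 3.33 ± 0.33 (adjusted p = 0.000615), from -3.66, -3.75 and -2.66 to 0.24, 0.10 and -0.42. Cyp11a1, a steroid-making enzyme, exceeded background on 1 control and was at least 23.3-fold higher (0.000141), though 5.58-fold and 4.46-fold with normexp (percentile and quantile). Ccr3, the eotaxin receptor of basophils and eosinophils, rose by 2.49 ± 0.25 (0.000658) and Il1rl1, the IL-33 receptor, by 2.52 ± 0.29 (0.00111). The other called genes were Il6 (3.14 ± 0.69, 0.019), Csf2rb (1.22, 0.0139), Il18r1 (1.15, 0.0139) and Csf2rb2 (0.94, 0.0211). Il6 read -1.37, -1.26 and -4.08 on controls 1 to 3, and Csf2rb was bright there, at 5.50 to 6.31. Il3ra and Crlf2, receptor chains for IL-3 and TSLP, had changes of 0.41 (0.197) and -0.03 (0.939). Itga2 and Il13 were not tested. Itga2 was well above background on 1 control and no IFN-beta array, and Il13 on 2 controls and 1 IFN-beta array.

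Genes that mark mature mast cells were mostly dim. Of 13, 6 (Mcpt1, Mcpt2, Tpsab1, Mrgprb1, Mrgprb2 and Tph1) were not well above background on any array, Mcpt4 lay above it on 2 controls and no IFN-beta array, and Cma1 on 2 arrays of each group. Their summed level was 18.7 to 27.4 times the percentile on the controls and 21.7 to 26.5 with IFN-beta, but Mitf and Ndst2, which other cells express too, made up 90.1% to 97.7% of it. The other 11 genes summed to 0.622 to 1.85 on the controls and 1.01 to 1.57 with IFN-beta. Of the 5 tested, Tpsg1 was at least 6.82-fold higher (adjusted p = 0.000167; 2.69-fold and 2.07-fold with normexp) and Slc18a2 was higher as given above, and 1 of the 5 was called without IFN-beta 2. Tpsb2, a mast cell tryptase, had a change of -0.54 (0.415), and without control 3 it was lower (-1.08, 0.0137). Against control 3 alone, 1 of the 5 was called higher. Of 9 eosinophil genes all were tested and 4 were higher, with a median of 0.48 and a sum of 6.21 to 10.2 on the controls and 7.63 to 9.55 with IFN-beta, of which Ear2 and Prg2, not called, made up 60.4% to 74.8%. Alox15, not well above background on any control, was at least 7.28-fold higher (0.000554; 3.19-fold and 2.36-fold with normexp), Il5ra rose by 1.94 ± 0.24 (0.0016) and Ear6 by 1.19 ± 0.23 (0.0122), while Prg2, the major basic protein gene, had a change of 0.02 (0.958). Without control 1 or without IFN-beta 2, 2 of the 9 were called, and Ear6 was not among them (adjusted p 0.0504 and 0.056).

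Many markers of early myeloid cells and of neutrophils were also called higher. Of 14 stem and progenitor genes 13 were tested and 9 were higher, with a median of 1.79, and 9 were higher and 1 lower against control 3 alone. Their summed level was 79.5 to 97.3 on the controls and 356 to 409 with IFN-beta. Ly6a made up 18.2% to 44.7% of this sum, and Ly6a with Mpo 32.7% to 62.4%. Without Ly6a it was 63.2 to 79.6 on the controls and 197 to 257 with IFN-beta. Ly6a (Sca-1), itself raised by interferon, rose by 3.11 ± 0.16 (adjusted p = 7.15e-05), the repressor Gfi1 by 2.97 ± 0.23 (0.000203) and the granule proteases and peroxidase of promyelocytes, Prtn3 and Mpo, by 2.87 ± 0.23 (0.000252) and 2.80 ± 0.27 (0.000591). Cd34 rose by 0.67 ± 0.18 (0.0394). Flt3, a receptor of lymphoid and dendritic cell progenitors, had a change of -0.94 (0.0589) with groups that did not overlap, and was the gene called lower against control 3 (-1.48, 0.0214). Erg and Meis1, factors of stem cells, had changes of -1.35 (0.34) and -0.55 (0.302), with groups that overlapped. Without control 3, 2 genes of this list were called lower. Of 14 neutrophil genes 9 were higher, with a median of 1.38, and 6 against control 3 alone; they summed to 586 to 782 on the controls and 951 to 1149 with IFN-beta. Ly6g rose by 2.88 ± 0.16 (8.25e-05), Ngp by 1.85 ± 0.23 (0.00165) and Fcnb by 1.60 ± 0.23 (0.00323), while Csf3r, the G-CSF receptor, and Mmp8 had changes of 0.06 (0.825) and -0.29 (0.463).

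T cells and innate lymphoid cells can also make IL-4 and express GATA factors. Of 10 of their genes 7 were tested, none was higher, and Rora was lower at -1.28 ± 0.26 (adjusted p = 0.0146), a call that ended without control 1 or IFN-beta 2; without control 3, 1 gene (Il7r) was higher and 3 were lower. Cd3e had a change of 0.12 (0.697), Il5 and Il9 were not well above background on any array, and the list summed to 71.0 to 95.7 on the controls and 85.2 to 111 with IFN-beta. Il7r made up 75.6% to 93.9% of this sum, and the rest summed to 8.45 to 18.02 on the controls and 6.78 to 7.67 with IFN-beta. Of 16 fibroblast genes 9 were tested and none was called; Col1a2, a collagen chain, had a change of -5.14 (0.136) and Lox, which crosslinks collagen, one of -4.52 (0.0614; 0.0133 with spike-in scaling). Without control 3, 8 were lower. Against control 3 alone 5 of them were higher, and the 10 basophil and mast cell genes were higher in both of these comparisons. Of 10 monocyte and macrophage genes 2 were higher and 3 lower, with a median of 0.13; Ly6c2 and Fcgr1 rose by 2.89 ± 0.17 (8.52e-05) and 2.20 ± 0.27 (0.00172) and Cd14 was lower at -1.81 ± 0.25 (0.00267). Without control 3, 5 of these were higher. All 15 interferon-stimulated genes rose, with a median of 4.003, among them Mx1 by 4.57 ± 0.26 (8.25e-05), Ifit3 by 4.47 ± 0.18 (1.88e-05) and Ifit2 by 4.25 ± 0.23 (7.35e-05), and all 15 were higher against control 3 alone. The list medians with slide as a block equalled those within slide 1, since both rest on IFN-beta 1 alone against the controls. They were 2.17 for the other basophil genes, 0.00472 for mast cell genes and 0.56 for eosinophil genes. For stem and progenitor genes, neutrophil genes and interferon-stimulated genes they were 1.83, 1.45 and 3.95, beside 3.58 for the 10 genes and 0.15 for all genes. The block called 4, 1, 2, 7, 3 and 14 genes of these lists higher, in the same order, and slide 1 alone 4, 1, 2, 4, 1 and 11. In the lists on histamine, the receptor's signalling, GATA partners, growth factors, IL-4, T cells and monocytes, the block left 0, 1, 2, 0, 3, 0 and 2 genes called higher and 1, 0, 0, 0, 1, 0 and 0 lower, and slide 1 alone left 1 gene each of the IL-4 and monocyte lists higher. The genes Slc18a2, Hrh2, Hnmt, Plcg1, Fyn, Nfe2, Vwf, Rora, Csf1, Ear6, Fcnb and Cd14 were among those not called with the block.

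The summed level of the 10 genes was 7.80 to 13.0 times the percentile on the controls and 70.8 to 104 with IFN-beta. Mcpt8 and Prss34 made up 48.6% to 64.4% of it. The rest summed to 3.95 to 5.68 on the controls and 25.4 to 37.4 with IFN-beta. The part that the numbers of basophils, progenitors or other cells had in the change of the 10 genes, or that a response within cells had, was not tested.

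**Figure D3:**
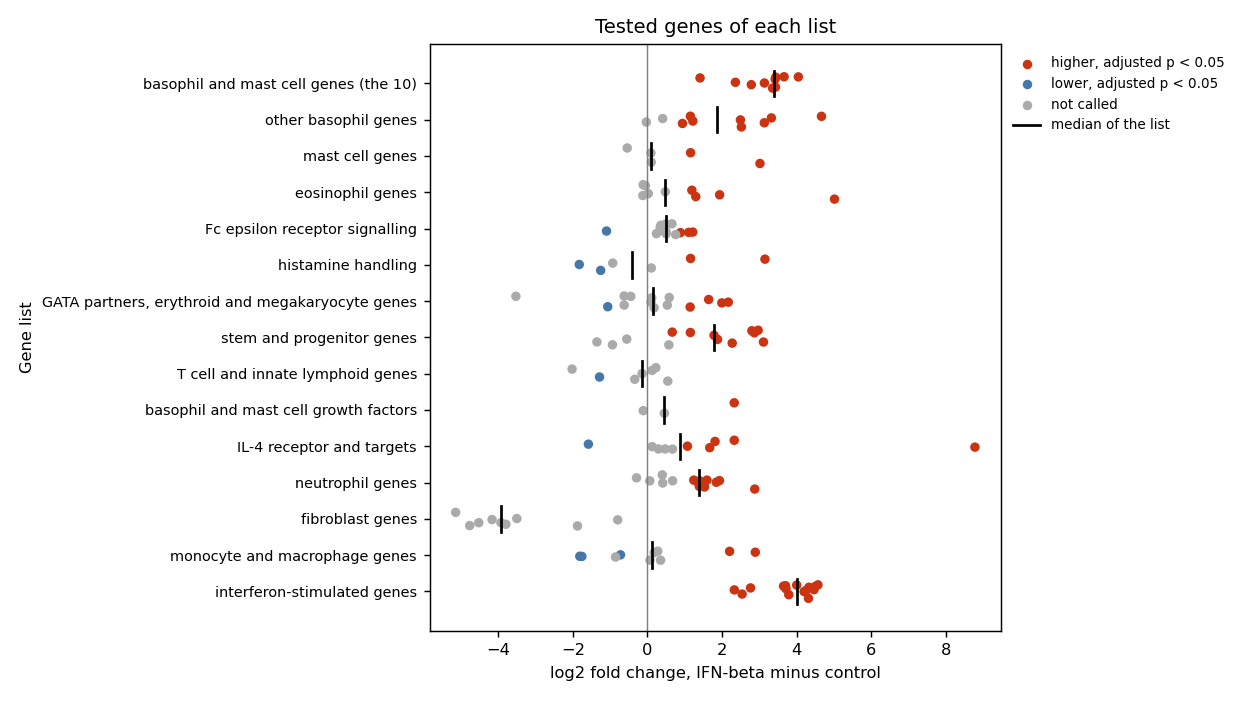
Log2 fold change of IFN-beta over control (horizontal axis) of every tested gene of 15 lists (vertical axis); red points were called higher and blue points lower at an adjusted p under 0.05, grey points were not called, and the black line is the list's median. The 10 genes (median 3.39) and the interferon-stimulated genes (median 4.003) are red throughout, whereas the 5 tested mast cell genes have a median of 0.10.

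**Figure D4:**
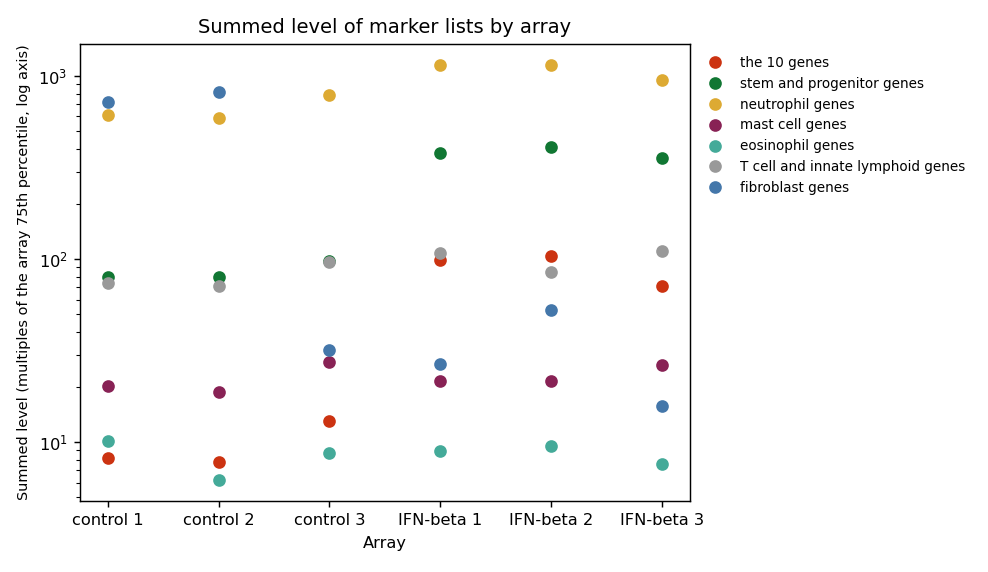
Summed level of 7 marker lists on each array, in multiples of the array's 75th percentile (log axis), with 1 point per list and array. The sums of the 10 genes, the stem and progenitor genes and the neutrophil genes are higher on each IFN-beta array than on any control. The sums of mast cell genes (mostly Mitf and Ndst2) and of eosinophil genes (mostly Ear2 and Prg2) overlap between the groups, and the T cell sum is mostly Il7r. Fibroblast genes stand at 722 and 818 on controls 1 and 2 against 32.0 (mostly Acta2) on control 3.

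Genes whose profile over the 6 arrays was most like that of Mcpt8 were ranked by the root mean square difference of their levels after each gene's mean was removed. The closest of the 19500 was Lad1 (0.0926 log2 units), the gene of ladinin 1, followed by Plac8 (0.123), Ms4a3 (0.132), Isg15 (0.143) and Ms4a4b (0.148). Ms4a3 is a gene of granulocyte and monocyte progenitors and of basophils, and Isg15 is an interferon-stimulated gene, and their log2 fold changes were 3.46 ± 0.24 and 3.79 ± 0.25. Of the other members Cpa3 came at rank 10, Prss34 at 15, Il4 at 24, Fcer1a at 38, Gata1 at 56 and Ms4a2 at 65, which put 6 of 9 within the first 100. Hdc stood at 109, Gata2 at 261 and Kit at 677. This ranking favours genes with a similar fold change, and it rests on 6 arrays that form a high and a low group.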

How the data were processed

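Total RNA of 6 cultures was labelled with Cy3 and hybridised to 1-colour Agilent arrays, 1 sample each. Spots were read by the authors with the software Agilent Feature Extraction (12.0.3.1), per the file headers, and the deposited scanner files give a background-corrected intensity per spot that was not normalized between arrays. A deposited table of processed log2 values for these arrays was set against the scanner files (r from 0.996 to 0.999 with the scanner values; medians of its columns 4.82 to 4.83). The submitters' processing notes name limma, its normalization is otherwise not given in the sources used here, and it served as an alternative.

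Of 59305 spots outside controls, 135 to 174 per array were dropped as outliers, spots of a probe were averaged, and 7 probes had no usable spot. Levels are log2 of the processed intensity minus the array's 75th percentile over probes. A probe was tested when all arrays of at least 1 group had it well above background (29794 probes), with 1 probe per gene, that of the highest mean, for 19500 genes. IFN-beta was compared with control by limma 3.58.1 (lmFit and eBayes, R 4.3.3, and data.table, version 1.17.8) with Benjamini-Hochberg adjustment and a threshold of 0.05; errors are the fit's standard errors (4 residual degrees of freedom and eBayes' prior). The comparison with control 3 used 3 levels. Steps were checked on simulated data. Groups are those of the labels, and their number of arrays limits the precision. Where a gene was not well above background in a group, a fold is the lower bound set by the lowest signal of a probe well above background. Replicate numbers did not pair the arrays (correlations of same-numbered deviations 0.064, 0.030 and 0.078).

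The 10 genes and the 14 other lists were chosen with earlier results of these data known. Named are all 10 genes with every probe; of each other list the 3 tested genes with the lowest p, the called gene of lowest p that went against the list's majority, and the called genes of lists with 3 or fewer; and the 5 genes most like Mcpt8. Other genes, named to complete counts or as cell type markers, were chosen after their values were seen. Promoter sequences are RefSeq's (GRCm38.p6); probe positions are those of the files (mm9), and the place of a probe within exons was not analysed here. Alternatives were quantile normalization, normexp (offset 50), spike-in scaling, the deposited table, other filters and probe rules, eBayes with trend and robust, array weights, replicate or slide as a block, slide 1 alone and leaving out each array; averaging controls 1 and 2 was chosen after the data were seen.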

Additional observations from a re-analysis of the deposited data

How the results depend on the processing

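The count of 10 genes called higher was the same under 20 of 21 alternatives, and within slide 1 it was 9 (Kit, adjusted p = 0.0834). Each gene's log2 fold change kept its sign throughout. The block on slide and slide 1 alone both rest on IFN-beta 1 as the only treated array, and gave the 10 genes the same fold changes. Against control 3 alone, Kit was also not called with no filter on dim probes (adjusted p = 0.0913), and array weights and the blocks were not run for that comparison. Over all genes, 3868 calls became 1693 with no filter on dim probes, 6402 when each probe was tested, 12740 with array weights, whose estimate stopped before it converged, 1039 with slide as a block, 369 within slide 1 and 1993 with controls 1 and 2 averaged as 1 sample. Without 1 array the count was 1831 to 9398. The 72 calls in the 14 other lists became 118 with array weights, 41 with slide as a block and 25 within slide 1, and 57 to 109 without 1 array. With the replicate number as a block 3264 genes were called, the 10 genes remained called, and the lists held 67 calls, and Vwf was no longer called (adjusted p = 0.0601). Deviations of same-numbered arrays correlated by at most 0.078, so the numbers were not taken as pairs. The change of Kitl, not called in any of these, turned from -0.111 to 0.0824 and 0.0194 with normexp (percentile and quantile), 0.00625 with the deposited table and 0.337 with the mean of its probes, and lay between -0.198 and 0.0108 without 1 array, the highest without IFN-beta 2; the cause was not tested. Signal over background limits the size of the fold changes of Fcer1a, Gata1 and Il4, whose controls were dim and which ranged from 1.69 to 3.77, 2.19 to 4.35 and 1.83 to 3.72 over the alternatives.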
